A study of Mus musculus with 6 samples.

Results

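The 10 genes described here are Dusp1, Dusp4, Dusp5, Dusp6, Spry1, Spry2, Spry4, Spred1, Etv4 and Etv5. They are regulators of the ERK pathway whose transcripts also serve in experiments as readouts of it. They and the pathway lists below were chosen by symbol, with earlier results of these data known. All 10 of these genes were found among the 55401 genes of the expression table, and all were among the 14209 that passed the filter for testing. The cells were NIH-3T3, a mouse embryonic fibroblast line kept in medium with fetal bovine serum, and a derivative of it whose genotype the labels give only as a mutation. The unmutated line (WT) and the derivative (MU) gave 3 libraries each, and the labels name no treatment. The series is titled for mitochondrial translation errors and their effects on the cell. Which gene was mutated, and whether the derivative is 1 clone, is not stated in the labels, so the mutation and other differences between the 2 lines cannot be told apart.

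ERK is the last kinase of a cascade in which an activated growth factor receptor loads Ras, Ras engages Raf, Raf activates MEK, and MEK phosphorylates ERK on a threonine and a tyrosine. Active ERK induces its own brakes at several levels. Dual-specificity phosphatases (Dusp) remove both phosphates from MAP kinases, Sprouty (Spry) and Spred proteins act on the steps between the receptor and Raf, and Etv4 and Etv5 are ETS transcription factors of the PEA3 group, induced downstream of FGF receptors in many tissues. In fibroblasts, serum growth factors drive this loop, and the mRNAs of several of its genes rise and decay quickly.

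Values are TPM, a length-corrected share of the transcripts in a library, which is corrected for transcript length, so levels can be compared between genes. Sequencing depth is not known from TPM, and no counting interval was computed. A difference is MU minus WT on the log2(TPM + 1) scale, which understates changes of genes at low TPM. A gene is called higher or lower at a Benjamini-Hochberg adjusted p under 0.05 over all 14209 genes (limma). By this rule 2667 genes were called, 18.8% of those tested, with 7.12% higher and 11.6% lower. Of these calls 37.9% were higher, against 48.5% when mtDNA-encoded genes were left out of the scaling, 46.2% when libraries were scaled by their median ratio and 48.8% when they were quantile normalized. Leaving out WT replicate 1 gave 1430 calls, and leaving out MU replicates 1, 2 and 3 in turn gave 1158, 1071 and 1203. Spearman correlations of a library's deviations with GC content ran from −0.25 in WT replicate 3 to 0.33 in WT replicate 2, and their part in the results was not tested beyond the GC and length correction reported with the other settings. All 7 fibroblast markers were at 1 TPM or more in every library, and their summed level was 8387 to 9688 TPM in WT and 10936 to 11439 TPM in MU. All 4 epithelial markers stayed below 1 TPM. The 3 leukocyte markers summed to 2.77 to 3.56 TPM in WT and 4.36 to 7.31 TPM in MU, with Ptprc at 0.0999 to 0.285 TPM. Most of the sum was Cd68, at 1.75 to 3.13 TPM in WT and 2.99 to 5.61 TPM in MU. Lyz2 was at 0.136 to 0.734 TPM in WT and 0.670 to 1.60 TPM in MU. The 3 endothelial markers summed to 1.53 to 3.21 TPM in WT and 0.619 to 0.803 TPM in MU, with Pecam1 below 1 TPM throughout. Most of the WT sum was Cdh5, at 1.32 to 2.82 TPM in WT and 0.0919 to 0.114 TPM in MU. Pecam1 was at 0.194 to 0.492 TPM in WT and 0.431 to 0.711 TPM in MU. The 3 neuronal markers summed to 3.06 to 4.09 TPM in WT and 12.7 to 16.8 TPM in MU, mostly from Map2, while Rbfox3 was at 0 in 5 of the 6 libraries. The part of these markers in the results was not tested.

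Promoter sequences bear on these genes because active ERK induces many of them at the level of transcription. RefSeq promoter windows (GRCm38.p6, the 250 bases before the start, gene strand, 5′ to 3′) matched 7 of the 10 genes, and Dusp4, Spry4 and Etv4 were not matched. All 7 windows were rich in CpG, with 16 to 31 CpG dinucleotides, where the median of 32851 promoters was 6. At least 16 were held by 25.4% of all these promoters. A set of 5 is shown, chosen to set Dusp6 and Spry1, which fell in the mutated cells, beside Dusp1, Dusp5 and Spry2, which were not called. In Dusp6, Spry1 and Spry2, capitals mark the core of ETS factor sites (GGAA, which reads TTCC where it lies on the other strand). In Dusp1 they mark the cyclic AMP response element TGACGTCA and its shorter form TGACG, searched on both strands and overlapping with it. In Dusp5 they mark a pair of adjoining CArG boxes, the motif of serum response factor. Each window is marked only for the motif named for it, and matches to the other motifs are left in lower case.
Dusp6 (chr10:99262981-99263230, + strand): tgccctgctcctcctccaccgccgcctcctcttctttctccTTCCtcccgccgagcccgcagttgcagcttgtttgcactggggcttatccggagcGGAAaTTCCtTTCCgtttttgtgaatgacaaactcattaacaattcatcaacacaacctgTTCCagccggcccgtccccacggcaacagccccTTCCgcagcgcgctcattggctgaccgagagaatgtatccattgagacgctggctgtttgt
Spry1 (chr3:37639697-37639946, + strand): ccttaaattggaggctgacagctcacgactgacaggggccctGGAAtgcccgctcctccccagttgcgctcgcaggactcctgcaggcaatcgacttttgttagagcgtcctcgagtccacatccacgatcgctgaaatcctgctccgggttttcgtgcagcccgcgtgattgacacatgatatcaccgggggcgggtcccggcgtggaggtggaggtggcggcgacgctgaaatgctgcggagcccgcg
Spry2 (chr14:105896820-105897069, − strand): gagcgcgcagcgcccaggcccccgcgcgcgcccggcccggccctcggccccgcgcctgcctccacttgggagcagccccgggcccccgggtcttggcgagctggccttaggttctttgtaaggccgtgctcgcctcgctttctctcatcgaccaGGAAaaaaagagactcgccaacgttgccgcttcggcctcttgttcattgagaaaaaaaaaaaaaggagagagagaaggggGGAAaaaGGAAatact
Dusp1 (chr17:26508473-26508722, − strand): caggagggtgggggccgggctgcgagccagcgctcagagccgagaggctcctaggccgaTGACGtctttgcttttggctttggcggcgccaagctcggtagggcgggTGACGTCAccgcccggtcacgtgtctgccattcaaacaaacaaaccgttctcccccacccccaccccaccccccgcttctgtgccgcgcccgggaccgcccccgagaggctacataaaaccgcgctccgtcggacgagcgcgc
Dusp5 (chr19:53528895-53529144, + strand): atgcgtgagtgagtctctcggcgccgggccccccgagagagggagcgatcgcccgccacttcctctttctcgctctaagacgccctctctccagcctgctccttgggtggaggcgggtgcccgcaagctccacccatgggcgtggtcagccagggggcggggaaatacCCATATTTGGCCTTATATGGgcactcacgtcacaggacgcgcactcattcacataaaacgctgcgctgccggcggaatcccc

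The ETS core was present 6 times in the Dusp6 window, 1 time in that of Spry1, 3 times each in those of Spry2 and Dusp5 and 4 times in that of Spred1. It had 0 matches in Etv5, which fell, and in Dusp1, so 5 of the 7 windows held it. It is short, and 93.4% of all promoter windows of this length hold it, with a median of 3 matches. The full cyclic AMP response element of Dusp1 occurs in 1.55% of windows and a CArG box in 1.47%. The shorter form TGACG, which 17.8% of windows hold, was present in those of Dusp1 and Dusp5. A longer ETS form, CCGGAA on either strand, which 12% of windows hold, was in 0 of the 7, and so was the AP-1 motif TGANTCA, held by 6.75%. These matches describe the letters of the windows and do not show that a factor binds there.

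In the mutated cells, 6 of the 10 genes fell and 0 rose, beside 11.6% of all tested genes called lower and 7.12% called higher. The falls were in both ETS factors, in Spry1 and Spry4, in Dusp6 and in Spred1. Not called were Dusp1, Dusp4, Dusp5 and Spry2. In 8 of the 10, every MU library was below every WT library, which held for 23.0% of all tested genes. At least 2-fold lower and called were 4 of the 10, Spry1, Spry4, Etv4 and Etv5, beside 2.69% of all tested genes. The median difference of the 10 genes was −0.61, where the median of all tested genes was −0.05. Because the 10 genes were chosen with earlier results of these data known, their excess over all tested genes is not independent of that choice. In bulk RNA, fewer cells with a transcript and less of it per cell cannot be told apart. The calls in the authors' deposited table were the same 6 genes, at an adjusted p under 0.05 that 21.1% of the genes in it with such a value reached.

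**Figure D1:**
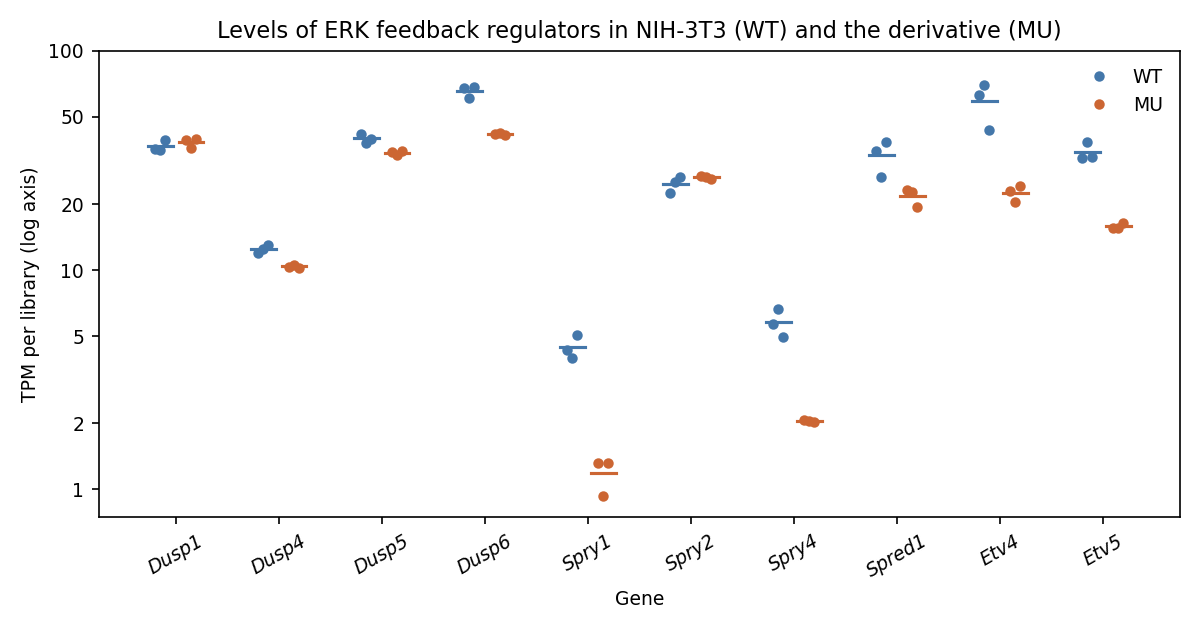
TPM of each gene in each library (log axis), with points for the 3 WT and 3 MU libraries and a bar at each group's mean. Spry1, Spry4, Etv4 and Etv5 show the widest gaps between groups, while the WT and MU points of Dusp1 and Spry2 overlap.

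The order of levels in WT began with Dusp6 at 65.7 TPM and Etv4 at 58.8 TPM, whose ranges over libraries overlapped. Next came Dusp5 (39.9), Dusp1 (36.8), Etv5 (34.6) and Spred1 (33.3 TPM), each overlapping in range with its neighbour. Spry2 (24.7), Dusp4 (12.5), and Spry4 (5.77) with Spry1 (4.44 TPM) followed, and of these neighbours only Spry4 and Spry1 overlapped. In MU, Dusp6 still stood first at 41.7 TPM, with Dusp1 (38.3), Dusp5 (34.3) and Spry2 (26.5 TPM) behind it. Etv4 had moved from the second to the fifth place and its range overlapped with that of Spred1 (22.5 and 21.8 TPM). Etv5 (15.8), Dusp4 (10.4), Spry4 (2.053) and Spry1 (1.19 TPM) closed the order without overlap.

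Among the Sprouty genes, whose products restrain Ras and Raf activation downstream of receptor tyrosine kinases, Spry1 and Spry4 fell while Spry2 was not called. Spry1 (ENSMUSG00000037211.12, chromosome 3, 37639947 to 37644598, GRCm38, 2 exons) stood at 4.31, 3.96 and 5.06 TPM in WT replicates 1 to 3 and at 1.31, 0.928 and 1.32 TPM in MU replicates 1 to 3. All MU libraries lay below all WT libraries. Its mean was 4.44 ± 0.560 TPM (mean ± SD, n = 3) for WT and 1.19 ± 0.224 TPM for MU, a 3.74-fold lower TPM and a difference of −1.32 (SE 0.17, limma adjusted p = 0.00426).

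Spry4 (ENSMUSG00000024427.7, chromosome 18, 38586247 to 38601415, 2 exons) was at 5.69, 6.67 and 4.95 TPM in WT and at 2.08, 2.04 and 2.04 TPM in MU. The MU libraries were nearly equal to each other and lay apart from WT. The difference was −1.14 (SE 0.15, limma adjusted p = 0.00455), a 2.81-fold lower mean TPM. Because both genes are at a few TPM, the added 1 shrinks their differences, and with an added 0.1 in its place they were −1.83 for Spry1 and −1.44 for Spry4. Neither was tested when a TPM of at least 5 was required.

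Spry2 (ENSMUSG00000022114.5, chromosome 14, 105891947 to 105896819, 2 exons) was at 22.4, 25.2 and 26.5 TPM in WT and at 26.8, 26.6 and 26.1 TPM in MU. The groups overlapped, with WT replicate 1 the lowest. Its difference of 0.10 had a 95% interval of −0.12 to 0.33 (limma adjusted p = 0.51). It lies among genes that were higher in MU, the median difference of its 40 neighbours being 0.28. Its difference became −0.24 after the neighbours' shift, taken relative to the median of all tested genes, was subtracted (limma adjusted p = 0.149).

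Spry2 was the most abundant of the 3 Sprouty mRNAs in both groups, and its share of the family did not overlap between the groups. Spry2 provided 70.7% ± 1.76 of the summed Sprouty TPM in WT (mean ± SD, n = 3) and 89.1% ± 0.731 in MU. The share of Spry1 was 12.7% ± 1.497 in WT and 3.99% ± 0.738 in MU, and that of Spry4 was 16.6% ± 2.66 and 6.90% ± 0.00748. The summed level of the 3 genes was 34.9 ± 2.23 TPM (WT) and 29.7 ± 0.372 TPM (MU). The log2 ratio of Spry1 to Spry2 was −2.24 ± 0.143 in WT and −3.66 ± 0.158 in MU, and that of Spry4 to Spry2 was −1.93 ± 0.241 and −3.17 ± 0.0101. For each ratio the groups did not overlap and an exact permutation test (two-sided) gave p = 0.1, the smallest that 3 against 3 libraries can give (0.125 adjusted over 5 pairs of genes, chosen after their values were seen).

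Spred1, a membrane-associated relative of the Sproutys that binds neurofibromin and restrains Ras, was the least firm of the 6 falls. Spred1 (ENSMUSG00000027351.14, chromosome 2, 117121374 to 117182279, 7 exons) was at 34.8, 26.6 and 38.5 TPM in WT and at 23.2, 22.7 and 19.4 TPM in MU. The groups were apart, but WT replicate 2 lay close to the MU libraries. The difference was −0.58 (SE 0.15, 95% interval −0.95 to −0.21, limma adjusted p = 0.0443). It was called in 7 of 18 other settings. Left out singly, WT replicate 1, WT replicate 3 and each MU library ended the call (limma adjusted p 0.086 to 0.141), while without WT replicate 2 it was called (0.0105). In the authors' deposited table its log2 fold change was −0.53 with an adjusted p of 0.00209. The related genes Spred2 and Spred3, named after their values were seen, were at 24.9 ± 1.98 and 8.90 ± 1.62 TPM in WT and 23.6 ± 0.651 and 9.36 ± 1.26 TPM in MU (limma adjusted p = 0.662 and 0.804).

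**Figure D2:**
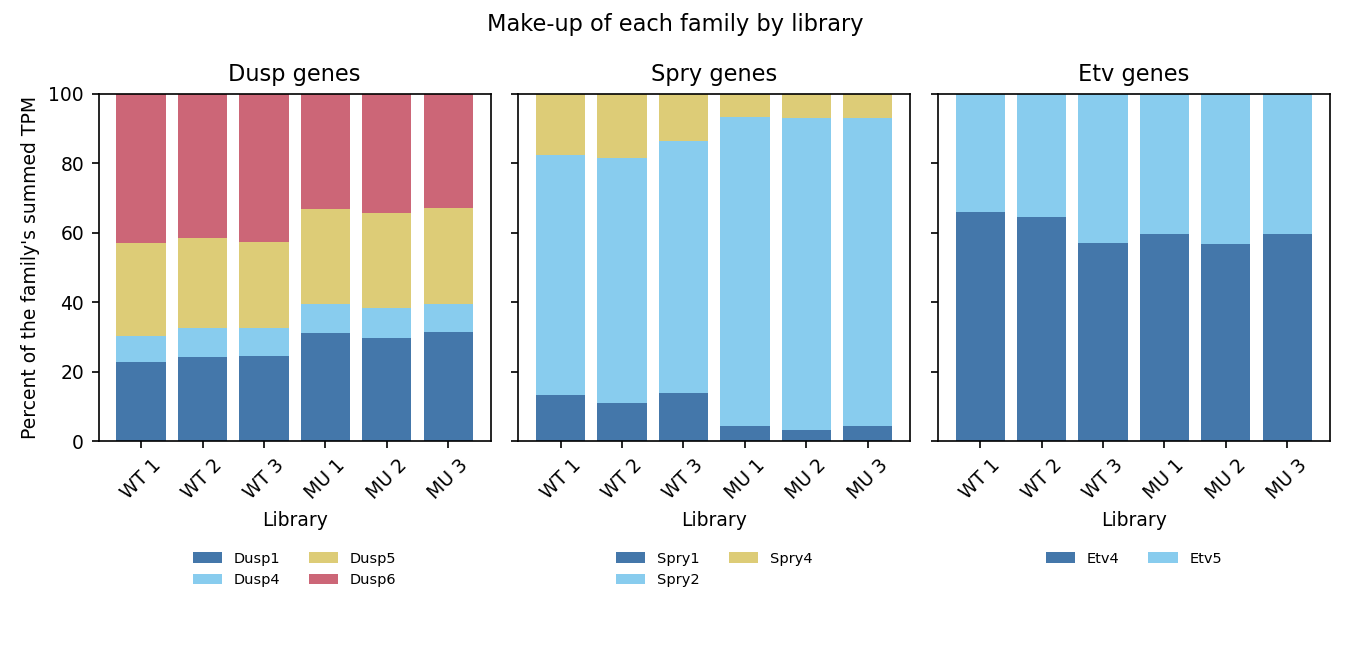
Stacked bars give each gene's percentage of the summed TPM of its family in each of the 6 libraries. Spry2 fills 69.1% to 72.6% of the Sprouty bars in WT and 88.6% to 89.9% in MU, while Dusp6 fills 41.5% to 43.1% of the phosphatase bars in WT and 32.8% to 34.5% in MU.

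Of the 4 MAP kinase phosphatases, Dusp6 alone was called. Dusp6, also known as MKP-3, is cytoplasmic and acts on ERK in preference to JNK and p38. Dusp6 (ENSMUSG00000019960.8, chromosome 10, 99263231 to 99267489, 3 exons) was at 67.7, 61.1 and 68.4 TPM in WT and at 41.8, 42.1 and 41.3 TPM in MU. The lowest WT library lay well above the highest MU library. The mean was 65.7 ± 4.04 TPM (WT) and 41.7 ± 0.394 TPM (MU), 63.5% of the WT level, and the difference was −0.64 (SE 0.08, limma adjusted p = 0.00397).

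Dusp5, a nuclear phosphatase that also acts on ERK, went from 41.8, 38.1 and 39.6 TPM in WT to 34.5, 33.3 and 34.9 TPM in MU. Every MU library was lower, yet the difference of −0.21 (SE 0.08) was not called (limma adjusted p = 0.117). Dusp5 (ENSMUSG00000034765.6, chromosome 19, 53529109 to 53542431, 4 exons) carries the CArG boxes shown above.

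Dusp4, a nuclear phosphatase that can act on ERK and JNK, was at 11.99, 12.5 and 13.0 TPM in WT and at 10.4, 10.6 and 10.2 TPM in MU. Again the groups were apart and the difference of −0.25 (SE 0.09) was not called (limma adjusted p = 0.123). Dusp4 (ENSMUSG00000031530.6, chromosome 8, 34807297 to 34819894, 4 exons) has 40 neighbours whose median difference was −0.30. Once that shift, taken relative to the median of all tested genes, was subtracted, its difference was −0.00233 (limma adjusted p = 0.99).

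Dusp1, a nuclear phosphatase of JNK, p38 and ERK that many stresses induce, was at 35.7, 35.4 and 39.2 TPM in WT and at 39.3, 36.1 and 39.4 TPM in MU. The groups overlapped, and the 95% interval of the difference of 0.06 was −0.15 to 0.26 (limma adjusted p = 0.699). It turned to −0.008 after the neighbours' shift of position was subtracted. Dusp1 (ENSMUSG00000024190.7, chromosome 17) spans 26505590 to 26562128 in the annotation because of long transcripts that reach Ergic1 on the other strand, a gene at 137 to 166 TPM. How strand was handled in counting is not stated in the labels or file headers, so reads in that overlap of 640 bases could be shared. Dusp5, Spry1 and Spry4 also overlap annotated genes, at no more than 0.428, 0.0473 and 1.53 TPM in any library.

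The summed level of the 4 phosphatases was 155 ± 6.86 TPM (WT) and 125 ± 2.22 TPM (MU). Dusp6 made up 42.4% ± 0.806 of it in WT and 33.5% ± 0.863 in MU, and Dusp1 23.7% ± 0.923 and 30.7% ± 0.963. The log2 ratio of Dusp6 to Dusp1 was 0.82 ± 0.0737 in WT and 0.12 ± 0.0802 in MU, and that of Dusp6 to Dusp5 was 0.71 ± 0.0568 and 0.28 ± 0.0458. Both ratios had non-overlapping groups and p = 0.1 in the exact permutation test, the smallest it can give (0.125 adjusted over the 5 pairs).

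Both PEA3 factors fell. Etv4 (ENSMUSG00000017724.14, chromosome 11, 101769742 to 101785371, 13 exons) was at 62.9, 69.9 and 43.5 TPM in WT and at 22.8, 20.3 and 24.2 TPM in MU. WT replicate 3 was low among the WT libraries but still above every MU library. Its mean of 58.8 ± 13.7 TPM in WT and 22.5 ± 1.97 TPM in MU gave a difference close to that of Spry1, −1.32 (SE 0.18, limma adjusted p = 0.0052).

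Etv5 (ENSMUSG00000013089.15, chromosome 16, 22381309 to 22439719, 13 exons) was at 32.6, 38.3 and 32.9 TPM in WT and at 15.6, 15.5 and 16.4 TPM in MU. No MU library came near the lowest WT library. With a difference of −1.08 (SE 0.10, limma adjusted p = 0.00142), it had the smallest adjusted p of the 10 genes, and its mean was 45.8% of the WT level. The summed TPM of both factors was 93.4 ± 16.0 in WT and 38.3 ± 2.41 in MU. Their log2 ratio, Etv4 to Etv5, was 0.72 ± 0.29 in WT and 0.48 ± 0.0922 in MU with overlapping groups (two-sided exact permutation p = 0.3), so a difference between the factors was not detectable here. Etv1, the remaining PEA3 factor and no member of the 10, was named after its values were seen. It went from 13.8 ± 1.62 to 5.47 ± 0.980 TPM, a difference of −1.19 (SE 0.15, limma adjusted p = 0.00423).

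**Figure D3:**
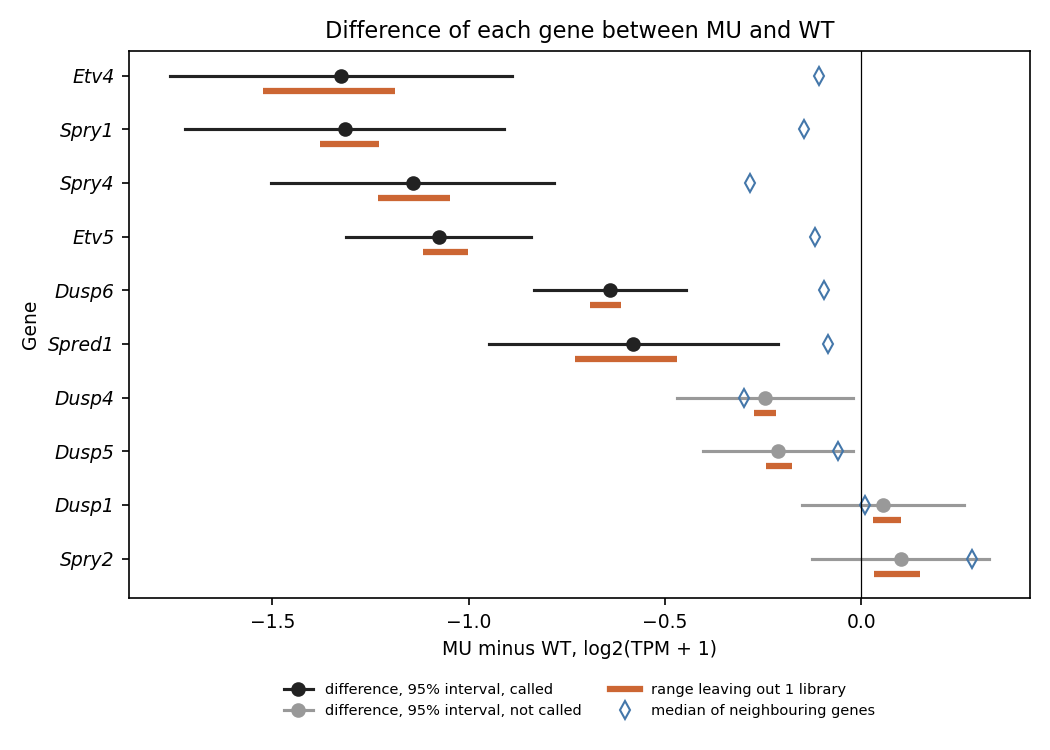
Points are the differences between MU and WT (log2(TPM + 1)) with 95% intervals (lines), dark where called and grey where not, the bar below each is the range when 1 library is left out, and diamonds are the median difference of 40 neighbouring genes. Etv4, Spry1, Spry4, Etv5 and Dusp6 lie left of their neighbours with intervals that end below −0.44, while Dusp4 lies beside its neighbours' median of −0.30.

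The calls of Dusp6, Etv4 and Etv5 held in all 18 other settings tried, and those of Spry1 and Spry4 in the 17 in which they were tested. For these 5 genes, leaving out 1 library at a time moved the differences within −0.69 to −0.61 (Dusp6), −1.38 to −1.23 (Spry1), −1.23 to −1.05 (Spry4), −1.52 to −1.19 (Etv4) and −1.12 to −1.002 (Etv5). In the authors' deposited table the log2 fold changes were −0.59 for Dusp6, −1.61 for Spry1, −1.34 for Spry4, −1.25 for Etv4 and −1.04 for Etv5, with adjusted p from 6.63e-13 to 8.64e-07. That table also left Dusp1, Dusp4, Dusp5 and Spry2 above an adjusted p of 0.05, at 0.356 to 0.642.

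The 10 genes lie on 10 different chromosomes, so none of them neighbours another. Their 3′ UTRs, in the longest coding transcript of each, ran from 619 bases in Etv4 to 4330 in Spred1. The pentamer ATTTA, part of the AU-rich elements that shorten the life of mRNAs, was found at least once in 9 of the 10 (all but Etv4), where 69.9% of 11204 tested protein-coding genes hold it. Its density was highest in Dusp1, at 5.80 per kilobase, and the median was 1.94 per kilobase in the 10 genes and 1.34 in all. Spry4 held 7 copies and Spred1 12, Dusp6 and Dusp5 a single copy each, so the called and uncalled genes were mixed in this feature.

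Of 24 genes listed as ERK-responsive, 23 were tested, and 11 fell and 3 rose, with a median difference of −0.39. Falls outnumbered rises among all tested genes too, with 11.6% lower and 7.12% higher. Ier3, an early response gene of stress and mitogens, fell from 71.8 ± 5.74 to 23.6 ± 1.06 TPM (−1.57, SE 0.09, limma adjusted p = 0.000337). Jun, a subunit of AP-1, fell from 113 ± 8.42 to 57.1 ± 2.33 TPM (−0.97, SE 0.09, 0.00138). In the other direction, Plau, the urokinase plasminogen activator, rose from 13.1 ± 0.734 to 32.6 ± 0.700 TPM (1.25, SE 0.09, 0.000536), and the ephrin receptor gene Epha4 rose from 0.727 ± 0.436 to 2.75 ± 0.359 TPM (1.14, SE 0.23, 0.0189). Named after their values were seen, Fosl1, another AP-1 subunit, went from 72.3 ± 24.6 to 21.1 ± 1.69 TPM and cyclin D1 (Ccnd1) from 165 ± 24.1 to 122 ± 2.90 TPM (limma adjusted p = 0.00632 and 0.0468). The immediate early genes of the Egr and Fos families, also chosen after their values were seen, were mixed. Egr3 fell from 9.02 ± 0.669 to 5.53 ± 0.492 TPM and Egr2 rose from 1.01 ± 0.0838 to 2.503 ± 0.262 TPM (limma adjusted p = 0.0167 and 0.0207). Egr1, at 28.4 ± 5.01 and 25.0 ± 0.831 TPM, and Fos, at 1.42 ± 0.0853 and 2.02 ± 0.528 TPM, were not called (limma adjusted p = 0.457 and 0.326). Fosb, at 1.75 ± 0.513 and 0.627 ± 0.259 TPM, was lower in each MU library and was not called here (limma adjusted p = 0.0709), while the authors' deposited table gives an adjusted p of 0.00351. The calls in this list numbered 8 without WT replicate 1, MU replicate 2 or MU replicate 3 and 9 without MU replicate 1, and Epha4 was not called without any 1 of the MU libraries or WT replicate 1 (0.055 to 0.0798).

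Of 26 further genes listed as negative regulators of this pathway, 24 were tested, and 7 fell and 1 rose (median difference −0.38). Among all tested genes, 11.6% were lower and 7.12% higher. Flrt3, a binder of FGF receptors described under the other observations, is 1 of the 7. It is counted by its place in the list and is not taken here as an inhibitor of the pathway. Lrig1, a transmembrane protein that promotes the breakdown of receptor tyrosine kinases, fell from 22.5 ± 0.448 to 9.42 ± 0.426 TPM (−1.18, SE 0.09, limma adjusted p = 0.000764). Errfi1, the ERBB inhibitor MIG6, fell from 59.5 ± 1.63 to 32.0 ± 0.172 TPM (−0.87, SE 0.07, 0.0011). Il17rd, or Sef, an inhibitor of FGF signalling, rose from 1.05 ± 0.0771 to 2.55 ± 0.286 TPM (0.79, SE 0.17, 0.0217), and lost its call when WT replicate 1 or a single MU library was left out (0.0543 to 0.0916). The list also holds tested Dusp phosphatases related to the members, described after their values were seen, of which 2 fell. Dusp7 went from 46.0 ± 8.58 to 29.9 ± 2.99 TPM and Dusp9 from 7.19 ± 0.694 to 3.33 ± 0.264 TPM (limma adjusted p = 0.0382 and 0.00602). Dusp10, at 16.5 ± 3.51 and 22.9 ± 2.29 TPM, and Dusp8, at 1.87 ± 0.0974 and 2.72 ± 0.116 TPM, had each MU library above the WT libraries and were not called here (limma adjusted p = 0.1 and 0.128). In the authors' deposited table both were higher, with adjusted p of 0.0166 and 0.0262. Dusp3, Dusp14 and Dusp16 had overlapping groups and were not called (limma adjusted p = 0.187, 0.981 and 0.446). Calls in this list numbered 5 without MU replicate 1 or MU replicate 2.

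**Figure D4:**
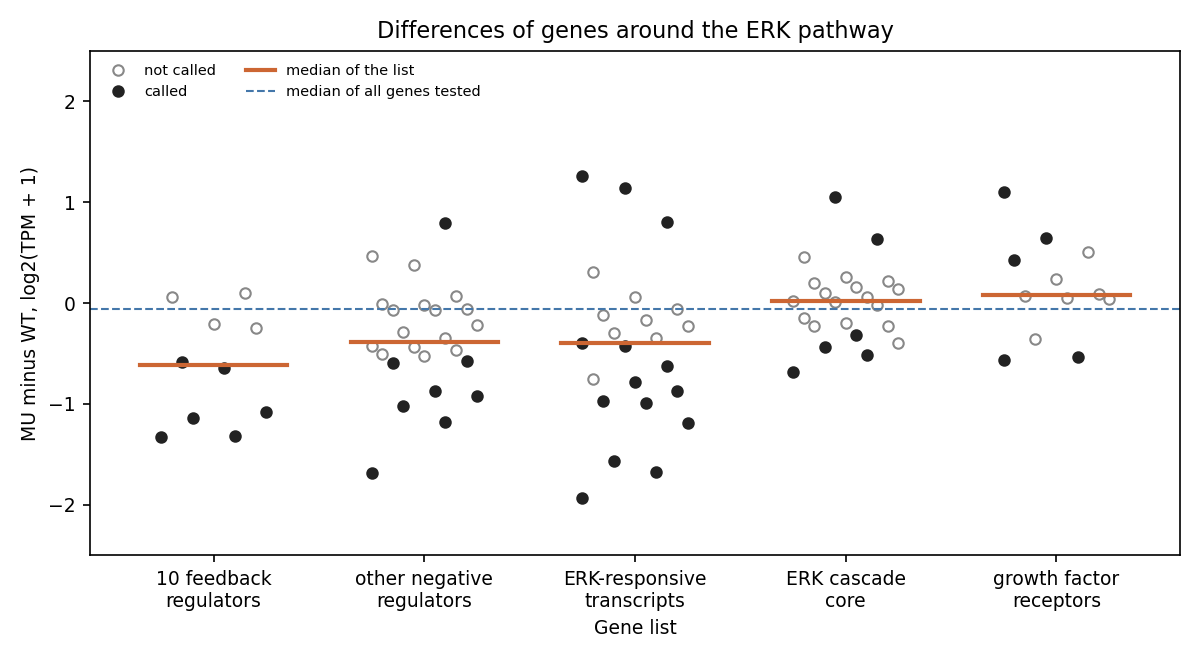
Each point is the difference of a tested gene between MU and WT (log2(TPM + 1)), filled where called, for the 10 feedback regulators and 4 lists of pathway genes, with a bar at each list's median and a dashed line at the median of all tested genes. The medians are −0.61 for the feedback regulators, −0.38 for other negative regulators, −0.39 for ERK-responsive transcripts, 0.02 for the cascade core and 0.08 for receptors.

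Of 22 tested genes for the adaptors, Ras proteins and kinases of the cascade (23 listed), 4 fell and 2 rose, with a median difference of 0.02. Among all tested genes 11.6% were lower and 7.12% higher, and a count of this size is not read as a result about the core. Map2k1, which encodes MEK1, fell from 66.2 ± 5.06 to 45.8 ± 1.85 TPM (−0.52, SE 0.09, limma adjusted p = 0.0108), and Ptpn11, the phosphatase SHP2, from 62.6 ± 2.94 to 46.0 ± 2.34 TPM (−0.44, SE 0.08, 0.0149). Frs2, the docking protein of FGF receptors, rose from 30.5 ± 4.26 to 47.6 ± 1.72 TPM (0.63, SE 0.12, 0.0145), and Rras, a Ras relative, from 20.6 ± 5.16 to 43.9 ± 9.81 TPM (1.06, SE 0.22, 0.0207). Mapk3, which encodes the kinase ERK1 and was named after its values were seen, averaged 56.1 ± 9.41 TPM (WT) and 63.7 ± 1.22 TPM (MU) and was not called (limma adjusted p = 0.361). These core calls were fragile, numbering 0 without MU replicate 1, 1 without MU replicate 2 or MU replicate 3 and 2 without WT replicate 1, and the call of Ptpn11 was lost after the neighbours' shift was subtracted (0.386).

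Of 16 receptor genes listed, growth factor receptors and the collagen receptors Ddr1 and Ddr2, 12 were tested. Of these 3 rose and 2 fell (median difference 0.08), where 7.12% of all tested genes were higher and 11.6% lower. The rises were in Fgfr2 and both collagen receptors, with Ddr1 close to the threshold (limma adjusted p = 0.0498). The receptors for FGF went in opposite directions. Fgfr1 fell from 79.0 ± 0.776 to 54.3 ± 2.48 TPM (−0.53, SE 0.08, limma adjusted p = 0.00562), while Fgfr2 rose from 14.3 ± 0.545 to 31.9 ± 1.90 TPM (1.10, SE 0.09, 0.00101). Axl, a receptor for Gas6, fell from 388 ± 34.2 to 263 ± 14.3 TPM (−0.56, SE 0.10, 0.0114), and Ddr2, a receptor for fibrillar collagen, rose from 110 ± 2.09 to 173 ± 2.79 TPM (0.65, SE 0.07, 0.00242). After the neighbours' shift was subtracted, the calls of Fgfr1 (limma adjusted p = 0.0511) and Ddr2 (0.0518) were lost. Calls in this list numbered 3 without MU replicate 1 or MU replicate 2, and Axl was not called in either (0.061 and 0.0556).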

How the data were processed

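The authors deposited a table of log2(TPM + 1) per gene for the 6 libraries (3 WT, 3 MU), per the file headers and the values, which return to nearly equal TPM totals in all libraries. A second deposited table, the authors' own comparison, holds each group's mean TPM with a log2 fold change and raw and adjusted p-values per gene. Per the labels, mRNA libraries were made with a strand-marking kit. Per the submitters' processing notes the authors used build mm10 with DESeq2 1.20.0, featureCounts 1.5.0-p3, HISAT2 2.05.0 and FastQC 0.11.4. Strand setting, annotation and TPM formula: not given in the sources used here.

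Values were returned to TPM, genes reaching 1 TPM in 3 or more libraries were kept, and log2(TPM + 1) was tested with limma 3.58.1 in R 4.3.3 (intensity trend, two-sided, no covariate), after a trial on simulated data. Depth is unknown. Nothing in the labels says that replicates came from separate cultures, and the p-values therefore cover only variation among these libraries, possibly technical. Identifiers were looked up in GENCODE M21 (GRCm38) without their version, with a match for 55141 of 55401 genes. The members and the pathway lists were chosen with earlier results of these data known. Beside the members, each list's 2 higher and 2 lower called genes with the smallest adjusted p are named. Every other gene of the lists was named after its values were seen.

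Alternatives were a replicate block, added constants of 0.1 and 5, no filter, a minimum of 5 TPM, scaling by median ratios, rescaling that leaves out mtDNA-encoded genes, limma with robust estimation or no trend, quantile normalization, each library left out in turn, and position centring, which subtracts from MU the median difference of up to 20 tested protein-coding neighbours on each side relative to all genes. A GC and length correction (loess, span 0.3) was added after seeing the data.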

Additional observations from a re-analysis of the deposited data

How the results depend on the processing

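Of the 10 feedback regulators, 4 to 6 were called across the settings, all lower in MU (4 with a minimum of 5 TPM, under which Spry1 and Spry4 were not tested). Spred1 was not called with the replicate block, no filter or limma without trend (difference −0.58 in each, limma adjusted p = 0.107, 0.0999 and 0.0606), rescaling without mtDNA-encoded genes (−0.52), quantile normalization (−0.51) or position centring (−0.55), and ranged from −0.73 to −0.47 when 1 library was left out. Position centring turned Dusp1 to −0.008 and Spry2 to −0.24. The cause was not tested.

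Correlations of deviations between WT and MU libraries of the same number were 0.0495, 0.0154 and −0.0744, so the numbers were not taken to pair the samples. With the replicate block 1093 genes were called, 5 of them among the 10 genes, 0 in the cascade core, 5 among other negative regulators, 9 among ERK-responsive transcripts and 3 among receptors. The block leaves fewer residual degrees of freedom.

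With 1 library left out, calls numbered 1071 to 3391 over all genes, 0 to 7 in the core, 5 to 10 among other negative regulators, 8 to 14 among ERK-responsive transcripts and 3 to 6 among receptors. No filter gave 9 ERK-responsive calls, and position centring gave 3 in the core and 2 among receptors. The differences of Dusp4 and Dusp5 were not called in any setting, and TPM keeps no depth to set a floor for Spry1.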

Other observations

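Some ligands and receptors of the pathway were barely detected. Egfr, the receptor of epidermal growth factor, reached at most 0.102 TPM in any library, Kit at most 0.0750 TPM and Areg, the ligand amphiregulin, at most 0.276 TPM, so none was tested. The other EGF family ligands in the lists, Ereg and Hbegf, were present and fell, which was noticed after their values were seen. Ligands of this family outside the lists were not examined. Ereg, or epiregulin, averaged 14.4 ± 3.72 TPM (WT) and 2.95 ± 0.316 TPM (MU) (difference −1.94, SE 0.20, limma adjusted p = 0.0021), and Hbegf went from 20.5 ± 2.41 to 9.80 ± 0.686 TPM (−0.99, SE 0.12, 0.00339). Flrt3, a membrane protein that binds FGF receptors and was likewise picked after its values were seen, went from 3.24 ± 0.238 to 0.323 ± 0.09997 TPM (−1.68, SE 0.18, 0.00221).

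The protein-coding genes whose centred profile over the 6 libraries was closest to that of Etv4 were Plxdc1 (root mean squared difference 0.0936 on the log2 scale), Timp1 (0.113) and Ercc1 (0.124). Timp1, an inhibitor of matrix metalloproteinases, averaged 119 ± 15.7 TPM (WT) and 48.6 ± 0.948 TPM (MU). Ercc1, a DNA repair gene, was at 195 ± 39.0 and 72.0 ± 4.33 TPM, and Plxdc1 at 1.63 ± 0.385 and 0.1099 ± 0.0969 TPM. Like Etv4, each had its lowest WT value in replicate 3. These genes were picked for this likeness, and it is a description of 6 libraries that share 2 groups.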
